A study of Mus musculus with 8 samples.

Results

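The genes described here are the Hox genes of the 4 mouse clusters, Prrx1 and Tbx18, chosen by symbol. The rule was met by 5 of the 5457 genes deposited: the Hox genes Hoxa7, Hoxc6 and Hoxc11, with Prrx1 and Tbx18. Other Hox genes were not analysed here. The table is a selected one. The authors' own log2 fold changes put each of its genes 2-fold or more away from Tw2_GM in 1 or more of the other groups.

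RNA was sequenced from cells of adult C57BL/6 hind limb muscle that had been labelled red by a tamoxifen-induced Cre recombinase, sorted and plated on Matrigel. The Pax7 cells came from Pax7-CreERT2/+;R26-tdTO+ mice and the Tw2 cells from Tw2-CreERT2/+;R26-tdTO+ mice, so that the Cre sat at Pax7, the gene of muscle satellite cells, or at Twist2 (Tw2). All mice had received tamoxifen 3 times, 10 days before harvest. The 4 groups of 2 libraries were Pax7_GM and Tw2_GM, titled GM, which the design text spells out as growth medium, and Pax7_48 and Tw2_48, whose titles carry the number 48. That number is given in hours for the Tw2 cells and without a unit for the Pax7 cells. The growth medium was Ham's F10 with 20% fetal bovine serum, and a differentiation medium with 2% horse serum and bFGF was also used, but the labels do not say which cultures it was given to. The tdTomato label marks a cell whose Cre was active at the time of tamoxifen and its offspring, whatever they express later. The labels do not say whether the 2 libraries of a group came from separate mice or cultures, so the p-values below measure the spread between these libraries, which may be technical.

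Hox genes encode homeodomain transcription factors that lie in clusters and are expressed along the body axis and the limb in the order in which they lie in the cluster. Adult mesenchymal and muscle cells keep part of the Hox pattern of the place they came from. Prrx1 encodes a paired-related homeodomain factor of limb bud and craniofacial mesenchyme, and Tbx18 a T-box factor of somite and epicardial mesenchyme that pericytes and smooth muscle cells also express.

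All 5 genes are protein-coding in the GENCODE M21 annotation of GRCm38. Hoxa7 (ENSMUSG00000038236.8) lies on the minus strand at chr6:52214491-52221854 in the HoxA cluster. Hoxc11 (ENSMUSG00000001656.3, chr15:102954427-102957708) and Hoxc6 (ENSMUSG00000001661.5, chr15:102998257-103011881) lie on the plus strand of the HoxC cluster. Prrx1 (ENSMUSG00000026586.16) lies on the minus strand at chr1:163245119-163313710, and Tbx18 (ENSMUSG00000032419.8) on the minus strand at chr9:87702800-87731260. How reads were assigned to genes is not given in the sources used here, so exonic sequence that a gene shares with another can bear on its level. In Hoxa7 20.4% of the exonic bases lie opposite the antisense gene Hoxaas3, and in Tbx18 20.6% lie opposite D030062O11Rik. The strand handling of the libraries is not given in the sources used here, so reads of these genes and of their partners cannot be told apart. The exons of Hoxa7, Prrx1 and Tbx18 also hold runs of at least 35 bases found in 3, 1136 and 297 other genes, while those of Hoxc6 and Hoxc11 hold none, and how the authors treated reads with several matches is not given.

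The promoters of Prrx1 and Tbx18 are shown because these genes differed between the lineages in opposite directions in both cultures, as described below. The sequences are RefSeq's for GRCm38.p6, 5' to 3', from 250 bases before to 50 bases after the annotated start, and capitals mark the core TAAT that many homeodomain proteins bind, on either strand (TAAT or ATTA).
Prrx1, chr1:163313601-163313900, minus strand: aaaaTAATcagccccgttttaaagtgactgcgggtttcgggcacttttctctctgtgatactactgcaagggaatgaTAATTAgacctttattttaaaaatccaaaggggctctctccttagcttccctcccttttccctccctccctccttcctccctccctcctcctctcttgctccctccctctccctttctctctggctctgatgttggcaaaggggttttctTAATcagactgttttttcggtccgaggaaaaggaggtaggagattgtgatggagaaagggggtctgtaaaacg
Tbx18, chr9:87731211-87731510, minus strand: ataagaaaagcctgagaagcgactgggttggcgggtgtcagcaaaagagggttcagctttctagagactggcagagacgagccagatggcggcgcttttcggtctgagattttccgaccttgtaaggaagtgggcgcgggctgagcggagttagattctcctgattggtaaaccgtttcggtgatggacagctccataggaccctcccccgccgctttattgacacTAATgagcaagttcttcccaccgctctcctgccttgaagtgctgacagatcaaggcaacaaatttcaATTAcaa
The Prrx1 promoter held 4 matches, 2 of them overlapping, at 246, 173, 171 and 23 bases before the start. As many or more were found in 11.6% of 32851 mouse promoters of this length, of which the median held 1. The Tbx18 promoter held 2 matches, a number that 34.1% of promoters reached, at 24 bases before and 43 bases after the start. The Hoxa7 promoter (chr6:52218524-52218823) held 0, and 58% of all promoters held at least 1. The E-box CANNTG, the letters bound by basic helix-loop-helix factors such as Twist2, occurred once in the Tbx18 promoter and in neither of the others, against 72.3% of all promoters. Such matches describe the letters alone.

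Effective library sizes, taken from the steps in the deposited values, were 5.18 to 13.7 M reads, and 43.5% to 65.7% of these fell in the genes fitted. The 2 Pax7_GM libraries were the shallowest and the least alike, with an SD of 0.50 for the log2 ratio of the 2 libraries over genes, against 0.17 to 0.20 in the other groups. Pax7 itself was at 112 to 117 CPM in the 2 Pax7_GM libraries and at 109 to 113 CPM in the 2 Tw2_GM libraries. With the scaling used here its level thus did not separate the lineages in GM (-0.05, limma, adjusted p = 0.738). Size factors, another scaling used below, were 0.812 and 0.86 in Pax7_GM and 1.55 and 1.51 in Tw2_GM. Dividing by them lowers Pax7 in Tw2_GM against Pax7_GM, so this comparison depends on the scaling. At 48 Pax7 was lower in both lineages, at 9.58 and 9.95 CPM in Pax7 cells and 13 and 12.6 CPM in Tw2 cells. With the scaling used here it was called higher in Tw2 cells at 48 (0.35, limma, adjusted p = 0.0303). Twist2 was not analysed here. Of 15 markers of satellite and myogenic cells 9 were in the table, and their summed level was 3400 to 4050 CPM in Pax7_GM, 2570 to 2640 in Tw2_GM, 11300 to 11600 in Pax7_48 and 9850 to 9930 in Tw2_48. In GM 0 of the 9 were higher and 5 lower in Tw2 cells, where 48.7% of all genes were called higher and 26% lower, and at 48 2 were higher and 5 lower, against 43.3% and 22.1%.

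Prrx1 set the lineages apart more than any other of the 5 genes. It was at 29.5 and 39.7 CPM in the deeper and the shallower Pax7_GM library and at 25.4 and 22.3 CPM in Pax7_48. In Tw2 cells it was at 4.68 and 2.39 CPM in GM and at 1.31 and 1.49 CPM at 48, which are 57, 27, 18 and 14 reads. Every Pax7 library was above every Tw2 library, and the order of the means was Tw2_48, Tw2_GM, Pax7_48 and Pax7_GM. All fitted genes reached 10 CPM in 4 libraries or more, and Prrx1 did so in the Pax7 libraries alone. This separation is thus not independent of the listing. The mean was 34.6 ± 7.22 CPM in Pax7_GM and 3.54 ± 1.62 in Tw2_GM (SD, n = 2), 9.8-fold lower in Tw2 cells. At 48 it was 23.8 ± 2.2 CPM in Pax7 and 1.4 ± 0.127 in Tw2 cells (SD, n = 2), 17-fold lower in Tw2 cells. On the log2(CPM + 1) scale, where a low level makes the difference smaller, Prrx1 was lower in Tw2 cells by -3.01 ± 0.25 (SE) in GM and by -3.37 ± 0.25 at 48 (limma, adjusted p = 5.10e-05 and 0.000107). Of all genes fitted, 1.98% had a larger absolute difference between the lineages in GM and 0.165% at 48. In a bulk sample fewer cells that express a gene and less RNA per cell cannot be told apart.

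Prrx1 was also lower at 48 than in GM in Tw2 cells, by -0.87 ± 0.25 (limma, adjusted p = 0.0102). This call rested on the deeper Tw2_GM library, without which the difference was -0.50 (adjusted p = 0.0786), and was also lost without the deeper Tw2_48 library (-0.82, adjusted p = 0.0549) and with size factors (-0.51, adjusted p = 0.0557). In Pax7 cells the difference was -0.51 ± 0.25 with an interval of -1.08 to 0.06 and did not pass the test (adjusted p = 0.0895), though 6 of 17 alternatives called it, among them the fit without the deeper Pax7_GM library (-0.72, adjusted p = 0.013). The 2 changes did not differ beyond their error either (-0.36, interval -1.17 to 0.45). Prrx2, the paralog of Prrx1 and not a member of the set, is named after its values were seen. Prrx2 was at 39 and 35.1 CPM in Pax7_GM and at 53.1 and 60.6 CPM in Tw2_GM, higher in Tw2 cells by 0.60 (adjusted p = 0.0149), while at 48 its lineage difference was -0.23 (adjusted p = 0.273). The Prrx2 difference in GM was -0.25 when libraries were scaled by size factors, so its direction depends on the scaling. That of Prrx1 did not turn under any alternative run.

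Markers of fibro-adipogenic progenitors and fibroblasts are given beside Prrx1, because such cells are the muscle cells best known for Prrx1 expression. Of 20 markers 7 were in the table. Their summed level was 1180 to 1210 CPM in Pax7_GM, 1400 to 1440 in Tw2_GM, 860 to 884 in Pax7_48 and 682 to 746 in Tw2_48, and none of the 7 was at 0 in a library. In GM 4 were higher and 2 lower in Tw2 cells, where 48.7% of all genes were called higher and 26% lower. At 48 2 were higher and 1 lower, against 43.3% and 22.1%. Col1a2, a chain of type I collagen, had the lineage direction of Prrx1. It was at 424 and 387 CPM in Pax7_GM and 3.61 and 3.28 CPM in Tw2_GM, and was called lower in Tw2 cells at 48 as well. Unlike Prrx1, Col1a2 was called higher at 48 than in GM in Tw2 cells (1.66), with unlike Tw2_48 libraries (6.84 and 24.1 CPM). Has2, which makes hyaluronan, was higher in Tw2_GM by 2.87. Pdgfra, Ly6a and Dcn were not analysed here. The part of other cells in the Prrx1 difference was not tested.

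Tbx18 went the other way, higher in Tw2 than in Pax7 cells. It was at 9.75 and 10 CPM in Pax7_GM and at 21.9 and 20.1 CPM in Tw2_GM. At 48 it was at 30.2 and 24.6 CPM in Pax7 cells and at 133 and 125 CPM in Tw2 cells. The 4 groups did not overlap, in the order Pax7_GM, Tw2_GM, Pax7_48 and Tw2_48. Group means were 9.89 ± 0.196 CPM in Pax7_GM, 21 ± 1.3 in Tw2_GM, 27.4 ± 3.92 in Pax7_48 and 129 ± 5.44 in Tw2_48 (SD, n = 2). Tbx18 was thus 2.12-fold higher in Tw2 than in Pax7 cells in GM and 4.71-fold higher at 48. The fitted lineage difference was 1.01 ± 0.14 in GM and 2.20 ± 0.14 at 48 on the log2(CPM + 1) scale (limma, adjusted p = 0.000339 and 5.40e-05). The difference in GM was 0.20 and no longer called with size factors (adjusted p = 0.214), whereas that at 48 ran from 1.56 to 2.34 over all alternatives and was called in each.

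The level of Tbx18 was higher at 48 than in GM in both lineages, by 1.38 ± 0.14 in Pax7 cells and 2.56 ± 0.14 in Tw2 cells (limma, adjusted p = 3.22e-05 and 5.71e-07). These are 2.77-fold and 6.13-fold on the CPM scale. The rise was larger in Tw2 cells by 1.19 ± 0.20 (interval 0.73 to 1.65, adjusted p = 0.00582), and 10.8% of all genes had a larger absolute difference of changes. Tbx18 was the 1 gene of the 5 for which the change between cultures differed between lineages. The difference of changes ran from 1.05 to 1.36 over the alternatives and was called in each.

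Markers of pericytes and smooth muscle are given beside Tbx18. Of 12 such markers 8 were in the table, and their summed level was 1970 to 2460 CPM in Pax7_GM, 1770 to 1910 in Tw2_GM, 10000 to 10500 in Pax7_48 and 11900 to 12300 in Tw2_48. The sum was mostly Acta2 and Des, which differentiating muscle cells also express: in the deeper Pax7_48 library Acta2 was at 5140 CPM and Des at 4640 CPM. The list was not uniform. In Tw2 cells 4 of the 8 were higher and 3 lower at 48, where 35.3% of all genes were called higher and 48.9% lower, and in Pax7 cells 3 were higher and 4 lower, against 38.8% and 40.5%. Rgs5 and Abcc9, both known from pericytes, went opposite ways. Rgs5 had 0 reads in both Pax7_48 libraries and 7 and 2 reads in the Tw2_48 libraries, against 11.4 and 18.9 CPM in Pax7_GM and 56.3 and 62.1 CPM in Tw2_GM. Abcc9 was at 3.52 and 5.98 CPM in Pax7_GM and 102 and 109 CPM in Pax7_48, and in Tw2 cells it was at 1.31 and 1.24 CPM in GM and at 92.3 and 80.2 CPM at 48. Cspg4 and Mcam were lower at 48 in both lineages.

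Between lineages 4 of the 8 markers were higher and 2 lower in Tw2 cells at 48 (Tagln 1.75, Cspg4 0.77, Acta2 0.67 and Mcam 0.55 against Notch3 -0.81 and Des -0.49), where 43.3% of all genes were called higher and 22.1% lower. In GM 2 were higher and 3 lower, against 48.7% and 26%. For the difference of changes 3 were higher in Tw2 cells (Tagln 1.57, Acta2 1.05 and Abcc9 1.02), as Tbx18 was, and 1 was lower (Rgs5 -1.50), against 9.72% and 9.01% of all genes. Of the 9 satellite and myogenic markers in the table, 2 were higher and 2 lower for this difference, against the same shares. Those higher were Myog, the myogenic differentiation factor (2.65), and Spry1 (1.70), and those lower were Vcam1 (-1.16) and Sdc4 (-1.07). In Tw2 cells Myog was at 110 and 89.1 CPM in GM and at 3700 and 3860 CPM at 48. The part of other cells or of differentiation in the Tbx18 differences was not tested.

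**Figure D1:**
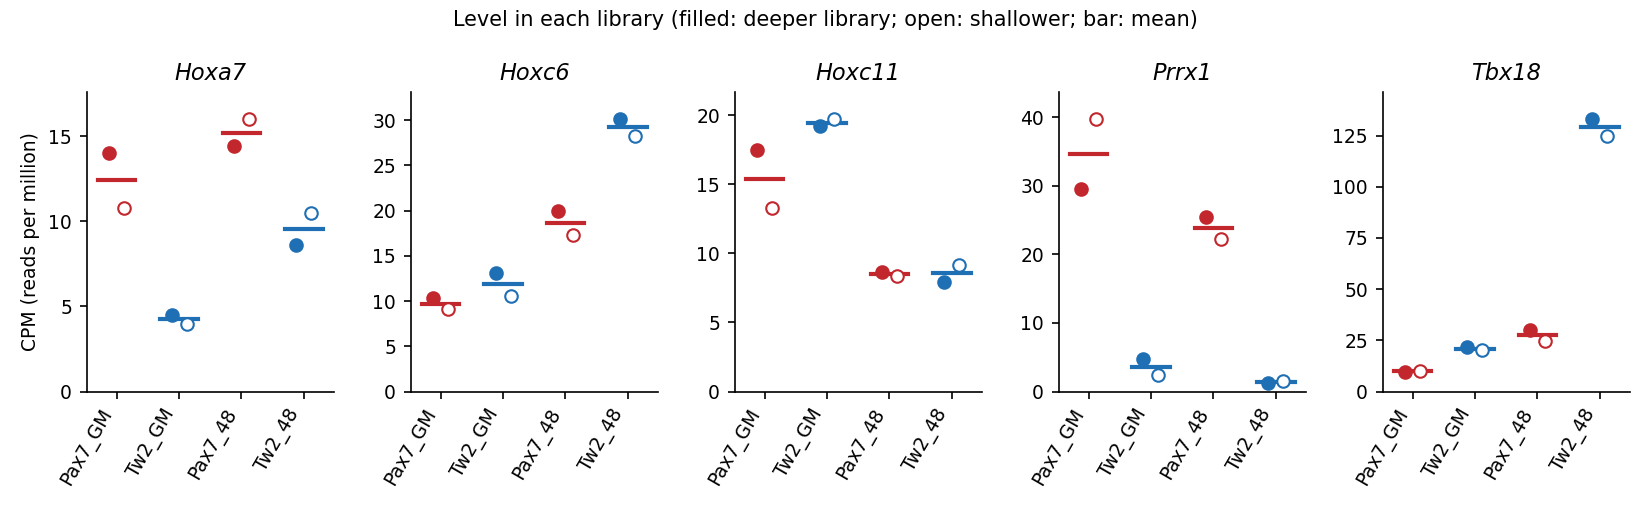
Level of the 5 genes in CPM (vertical axis, from 0, with its own range for each gene) in the 2 libraries of each group (horizontal axis), with Pax7 cells in red, Tw2 cells in blue, filled points for the deeper library, open points for the shallower one and bars for the mean. Prrx1 was below 5 CPM in all 4 Tw2 libraries and above 22 CPM in all 4 Pax7 libraries, and Tbx18 stood highest in the 2 Tw2_48 libraries.

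The plot of levels by library shows 3 different patterns among the Hox genes. Hoxa7, a trunk-level gene of the central part of the HoxA cluster, followed the lineage direction of Prrx1. It was at 14 and 10.8 CPM in Pax7_GM and at 4.52 and 3.98 CPM in Tw2_GM. At 48 it was at 14.4 and 16 CPM in Pax7 cells and at 8.59 and 10.5 CPM in Tw2 cells. All Pax7 libraries were above all Tw2 libraries, although the gap between the lowest Pax7_GM and the highest Tw2_48 library was small. Of the Tw2 libraries only the shallower one at 48 reached 10 CPM, the level that all fitted genes reached in 4 libraries or more. Hoxa7 thus met this mainly through the Pax7 libraries, so the separation is not independent of the listing. Hoxa7 was lower in Tw2 cells by -1.34 ± 0.17 in GM and by -0.62 ± 0.17 at 48 (limma, adjusted p = 0.000213 and 0.0122). These are 2.91-fold and 1.59-fold on the CPM scale. The difference in GM was -2.06 with size factors and -0.37 once a trend with GC content and length was removed, called in both. The difference at 48 was lost without the shallower Pax7_48 library (adjusted p = 0.0823) or the deeper Tw2_48 library (adjusted p = 0.0999), and it was 0.02 without the GC and length trend.

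Hoxa7 was higher at 48 than in GM in Tw2 cells by 1.00 ± 0.17, from a mean of 4.25 ± 0.378 to 9.56 ± 1.37 CPM (SD, n = 2; limma, adjusted p = 0.0005). In Pax7 cells the means were 12.4 ± 2.23 CPM in GM and 15.2 ± 1.13 at 48 (SD, n = 2), and the difference of 0.28 did not pass the test (adjusted p = 0.151). It did without the deeper Pax7_GM library (0.45), with quantile normalization (0.62) and with size factors (0.52). The difference between these 2 changes was 0.72 with an interval of 0.18 to 1.27, and it too missed the threshold after adjustment (adjusted p = 0.0692). It was called without the deeper Pax7_GM library (0.55) and without the shallower one (0.89), so the 2 unlike Pax7_GM libraries decide this call. The exonic bases shared with the antisense Hoxaas3, described above, bear on each of these Hoxa7 values.

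Hoxc6, a thoracic and forelimb-level gene of the HoxC cluster, followed the culture more than the lineage. It was at 10.3 and 9.07 CPM in Pax7_GM and at 13.1 and 10.6 CPM in Tw2_GM. At 48 it was at 20 and 17.3 CPM in Pax7 cells and at 30.1 and 28.3 CPM in Tw2 cells. Both groups at 48 stood above both GM groups, and the GM groups lay next to each other. Hoxc6 was listed through its change from GM to 48 in Tw2 cells alone, so this pattern is not independent of the listing. Hoxc6 was higher at 48 by 0.88 ± 0.15 in Pax7 cells and by 1.24 ± 0.15 in Tw2 cells (limma, adjusted p = 0.000732 and 7.54e-05), which is 1.93-fold and 2.47-fold on the CPM scale. Both changes were called under every alternative run, and the difference between them was 0.36 with an interval of -0.13 to 0.86 (adjusted p = 0.24).

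Between the lineages Hoxc6 differed by 0.26 in GM, with an interval of -0.09 to 0.61, which did not pass the test (adjusted p = 0.149). At 48 it was higher in Tw2 cells by 0.62 ± 0.15 (limma, adjusted p = 0.00795), with means of 18.6 ± 1.93 CPM in Pax7 and 29.2 ± 1.3 CPM in Tw2 cells (SD, n = 2). This call was lost without the shallower Pax7_48 library (adjusted p = 0.0662), without the deeper Tw2_48 library (adjusted p = 0.061) and with quantile normalization (0.21, adjusted p = 0.417). It was -0.01 with size factors. Without the GC and length trend Hoxc6 was called higher in Tw2 cells in both cultures, by 1.32 in GM (adjusted p = 0.000156) and 1.33 at 48 (adjusted p = 0.000326).

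Hoxc11, a gene of the 5' part of the HoxC cluster that is known from the hind limb, moved against Hoxc6, which lies in the same cluster. It was at 17.5 and 13.3 CPM in Pax7_GM and at 19.2 and 19.7 CPM in Tw2_GM. At 48 it was at 8.64 and 8.38 CPM in Pax7 cells and at 7.94 and 9.15 CPM in Tw2 cells. Every GM library was above every library at 48, and at 48 the lineages overlapped. All fitted genes reached 10 CPM in 4 libraries or more, and Hoxc11 did so in the GM libraries alone. The order of GM and 48 is thus not independent of the listing. Hoxc11 was lower at 48 by -0.77 ± 0.16 in Pax7 cells and by -1.10 ± 0.16 in Tw2 cells (limma, adjusted p = 0.00178 and 0.000185), which is 1.81-fold and 2.27-fold on the CPM scale. The change in Pax7 cells missed the threshold with quantile normalization (-0.47, adjusted p = 0.0852), and that in Tw2 cells was -0.66 with size factors, still called. The 2 changes differed by -0.33, with an interval of -0.83 to 0.18 (adjusted p = 0.293), and this difference was called without the deeper Pax7_GM library (-0.51) and without the GC and length trend (-0.70).

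The lineages did not differ in Hoxc11 beyond the error of the test. The difference was 0.33 in GM with an interval of -0.03 to 0.69 (adjusted p = 0.0858), and 0.00 at 48 with an interval of -0.36 to 0.36 (adjusted p = 0.991). Of the 10 lineage comparisons of the 5 genes, that of Hoxc11 at 48 was the 1 in which the libraries of the 2 groups overlapped. In GM a difference was called without the deeper Pax7_GM library (0.51) and once the GC and length trend was removed (1.40), and at 48 it was called in the latter case (0.70) and, the other way, with size factors (-0.59).

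Read by comparison, 3 of the 5 genes were called between lineages in GM (Tbx18 higher, Hoxa7 and Prrx1 lower in Tw2 cells), where 74.7% of all genes were called, 48.7% higher and 26% lower. The libraries of the 2 groups did not overlap for any of the 5 genes in GM, as for 87.8% of all genes. At 48 4 of the 5 were called (Hoxc6 and Tbx18 higher, Hoxa7 and Prrx1 lower), against 65.4% of all genes, 43.3% higher and 22.1% lower. The same 4 did not overlap, against 89.6%. Between cultures 3 of the 5 were called in Pax7 cells (Hoxc6 and Tbx18 higher, Hoxc11 lower at 48), against 79.2%, 38.8% higher and 40.5% lower. In Tw2 cells all 5 were called (Hoxa7, Hoxc6 and Tbx18 higher, Hoxc11 and Prrx1 lower at 48), against 84.1%, 35.3% higher and 48.9% lower. The libraries of GM and 48 did not overlap for any of the 5 in either lineage, against 85% of all genes in Pax7 and 95% in Tw2 cells. For the difference of the changes it was 1 of 5 (Tbx18, higher), against 18.7%, 9.72% higher and 9.01% lower. These shares lie near the background, so the numbers called say nothing particular about these genes. The median change of the 5 from GM to 48 in Tw2 cells was 1.00, beside -0.49 over all genes fitted, and in Pax7 cells 0.28 beside 0.01. Their median lineage difference was 0.26 in GM and 0.00 at 48, beside 0.34 and 0.27 over all genes.

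The listing condition used some of these contrasts. In the authors' deposited table, Hoxc6 was listed through Tw2_48 against Tw2_GM alone (1.23), and Hoxc11 through Pax7_48 and Tw2_48 (-1.10 in both). Prrx1 was listed through Pax7_48 and Pax7_GM (2.45 and 2.97), Tbx18 through Tw2_48 and Pax7_GM (2.56 and -1.02), and Hoxa7 through all 3 (1.62, 1.35 and 1.01). The values just past the 2-fold limit were the 1.01 of Hoxa7 and the -1.02 of Tbx18 in the authors' deposited table. The lineage difference at 48 and the change in Pax7 cells do not involve Tw2_GM, but they use group values that listed the genes, so no contrast here is independent of the listing. All fitted genes also reached 10 CPM in 4 libraries or more. Prrx1 did so in the Pax7 libraries alone and Hoxc11 in the GM libraries alone. Hoxa7 did so in the Pax7 libraries and, of the Tw2 libraries, in the shallower Tw2_48 library only.

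**Figure D2:**
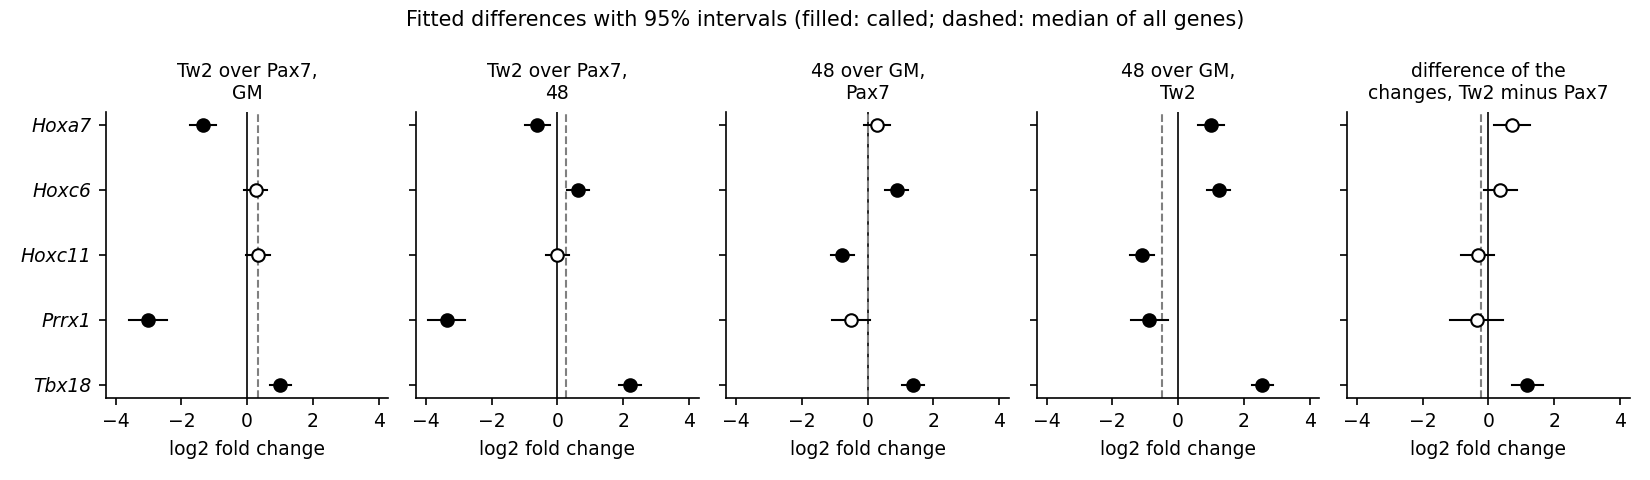
Fitted log2 fold change (horizontal axis) of each gene (vertical axis) in the 5 comparisons, with 95% intervals as lines, filled points for adjusted p under 0.05 and the median of all genes as a dashed line. Prrx1 lies near -3 in both lineage comparisons, and Tbx18 lies right of 0 in all 5 panels.

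The lineage differences depended on how libraries were scaled. Size factors shift all genes of a library together, while quantile normalization and the removal of the GC and length trend move genes by different amounts. The median lineage difference of all genes in GM was 0.34 as reported. It was -0.50 after scaling by size factors, -0.14 after quantile normalization and 0.54 after removal of the GC and length trend. Accordingly, 65.2% of the genes called in GM were higher in Tw2 cells as reported, and 32.1%, 47.2% and 80.9% under these 3 scalings. At 48 the share was 66.2% as reported and 26.4%, 48.4% and 77.9% under the same scalings. Prrx1 remained low in Tw2 cells under all 3 and Tbx18 high, with the call of Tbx18 in GM lost under size factors. The direction of Hoxc6 and Hoxc11 between lineages turned with size factors in both cultures, as the plot of the 4 scalings shows.

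**Figure D3:**
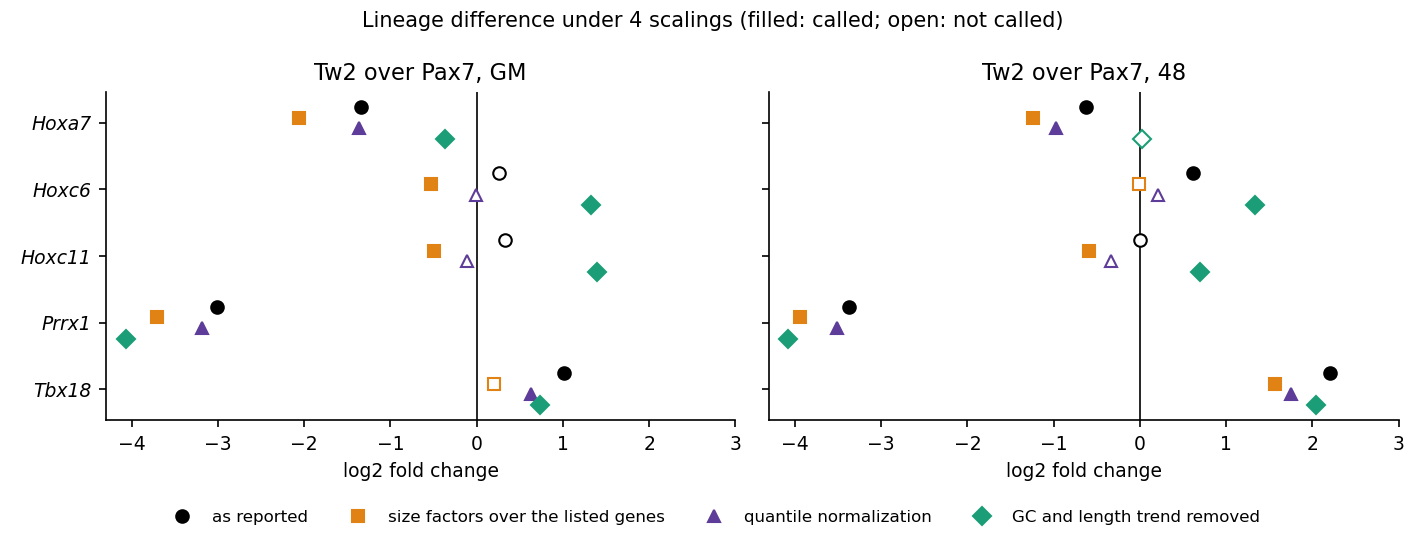
Lineage difference as log2 fold change (horizontal axis) of each gene (vertical axis) in GM and at 48 under the scaling used here and 3 others, with filled symbols for adjusted p under 0.05. All 4 symbols of Prrx1 lie below -2 in both cultures, while those of Hoxc6 and Hoxc11 fall on both sides of 0.

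Levels of different genes are compared per kb of exon, in CPM per kb, over all annotated exons of a gene. These exons exceed the longest transcript by unlike amounts, so the order can depend on the length used. They hold 2876 against 2031 bases in Hoxa7, 11066 against 6527 in Prrx1 and 4718 against 4679 in Tbx18. In Tw2_48 the order was Tbx18 (27.3), Hoxc6 (12.1), Hoxc11 (4.23), Hoxa7 (3.33) and Prrx1 (0.127). In Tw2_GM it was Hoxc11 (9.62), Hoxc6 (4.92), Tbx18 (4.45), Hoxa7 (1.48) and Prrx1 (0.32). In Pax7_GM Hoxc11 led as well (7.62), with Hoxa7 (4.3), Hoxc6 (4.02), Prrx1 (3.13) and Tbx18 (2.1) below it, and in Pax7_48 Hoxc6 led (7.74), followed by Tbx18 (5.8), Hoxa7 (5.28), Hoxc11 (4.21) and Prrx1 (2.15). The most abundant of the 3 Hox genes was thus Hoxc11 in both GM groups and Hoxc6 in both groups at 48.

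The genes most like each member were sought by the smallest root mean square difference of centred log2(CPM + 1) over the 8 libraries. For Prrx1 they were Dhrs4 (0.34), Atp6v0e2 (0.40) and Ndn (0.45), which encode a dehydrogenase, a proton pump subunit and necdin. Dhrs4 averaged 25.4 CPM in Pax7_GM and 2.22 CPM in Tw2_GM. For Tbx18 they were Ehbp1 (0.18), Atp1b1 (0.25) and Tmem123 (0.26), and Ehbp1 averaged 63.5 CPM in Tw2_48 and 5.8 CPM in Pax7_GM. The nearest genes lay closer to the Hox genes: Abcb8 for Hoxa7 (0.14), the clock gene Per2 for Hoxc6 (0.11) and Kctd10 for Hoxc11 (0.08). Pearson's r of these pairs over the 8 libraries, which fall into 4 groups, was 0.97 to 1.00.

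Hox proteins bind DNA with TALE homeodomain cofactors (among them the Meis, Pknox and Tgif families), of which 5 of 11 listed genes could be fitted. In both lineage comparisons 2 were higher and 1 lower in Tw2 cells, near the share of all genes called (48.7% higher and 26% lower in GM, 43.3% and 22.1% at 48). Meis2 was higher by 1.53 in GM and 1.43 at 48, and Pknox2 was lower by -1.08 and -0.69 (limma, adjusted p of 0.0024 or less). Meis2 kept its direction and call under the 3 other scalings, whereas Pknox2 at 48 was -0.25 without the GC and length trend (adjusted p = 0.112). Between cultures Meis2 and Tgif1 were lower at 48 in both lineages, by -1.25 and -1.68 in Pax7 cells and by -1.35 and -1.49 in Tw2 cells. For no TALE gene was the difference of the changes called with the scaling used here. With quantile normalization 1 of the 5 was called higher.

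Of 44 other homeobox genes of limb, mesoderm and muscle 12 could be fitted. At 48 4 were higher and 8 lower than in GM in each lineage, where 38.8% of all genes were called higher and 40.5% lower in Pax7 cells and 35.3% and 48.9% in Tw2 cells, with medians of -0.89 in Pax7 and -1.51 in Tw2 cells beside 0.01 and -0.49 over all genes. The distal-less genes Dlx1 and Dlx2 were the lowest, by -3.31 and -3.30 in Pax7 cells and -4.39 and -4.35 in Tw2 cells. Msx1, which keeps myogenic cells undifferentiated, was lower by -2.12 and -2.90. Irx3, an Iroquois gene, was at 14.1 and 14.7 CPM in Pax7_GM, 6.41 and 6.37 CPM in Tw2_GM, 39.7 and 36.4 CPM in Pax7_48 and 67.9 and 70 CPM in Tw2_48. Its rise was larger in Tw2 cells by 1.90 (limma, adjusted p = 0.00036), and that of Irx5 by 1.09 (adjusted p = 0.0174). Of the 12 the difference of changes was called higher for 3, Irx3, Irx5 and Dlx3 (1.04), and lower for 4, Dlx1 (-1.08), Dlx2 (-1.05), Six4 (-0.97) and Msx1 (-0.78). Over all genes 9.72% were called higher and 9.01% lower for this difference. With size factors 4 of the 12 were higher and 0 lower, and without the GC and length trend 1 was higher and 6 lower. The direction of the calls over all genes also shifted with the scaling, as given below. The Irx3 difference was 1.61 to 2.01 under the 3 other scalings, and that of Irx5 was not called with quantile normalization or the GC and length trend removed. Between lineages 6 of the 12 were higher and 3 lower in Tw2_GM, where 48.7% of all genes were called higher and 26% lower. With size factors 1 of the 12 was higher and 8 lower there.

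Of 15 other T-box genes 3 could be fitted. Tbx15, a regulator of fast muscle fibres, was higher at 48 by 2.90 in Pax7 and 2.72 in Tw2 cells, at 239 and 231 CPM in Pax7_48 and 197 and 182 CPM in Tw2_48. Unlike that of Tbx18, its lineage differences were not called (-0.14 in GM, -0.31 at 48) with the scaling used here, and both were called lower with size factors (-0.98 and -0.97). Tbx3 was lower in Tw2 cells by -1.01 in GM and -1.32 at 48. Tbx1 was called higher in both, by 1.31 at 48, and its call in GM was lost with size factors (0.35, adjusted p = 0.0721).

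Polycomb and trithorax proteins keep Hox clusters silent or active, and 24 of 40 listed genes could be fitted. In GM 17 were higher and 1 lower in Tw2 cells, where 48.7% of all genes were called higher and 26% lower, and with size factors 9 were higher and 7 lower. The median was 1.19 beside 0.34 over all genes, and 0.78 beside 0.54 without the GC and length trend. Mtf2, Suz12, Kdm6a and Bmi1 led, higher by 3.05, 2.61, 2.40 and 2.35, and stayed called in this direction under the 3 other scalings, though with smaller differences without the GC and length trend (Suz12 1.46, Bmi1 1.14). In the deeper and the shallower Pax7_GM library Kdm6a was at 5.01 and 16.2 CPM, and Suz12 at 16.3 and 30.7 CPM. Bmi1 was at 15.9 and 30.3 CPM there, so the differences of Kdm6a, Suz12 and Bmi1 depend on unlike Pax7_GM libraries. The Pax7_GM libraries were closer for Mtf2, at 4.74 and 6.17 CPM. In both Tw2_GM libraries each of these genes was at 45.3 CPM or more. At 48 14 were higher and 3 lower in Tw2 cells, where 43.3% of all genes were called higher and 22.1% lower. The median at 48 was 0.79 beside 0.27 over all genes, or 0.54 beside 0.31 without the GC and length trend. With size factors, under which most genes called in either culture were lower in Tw2 cells, 6 were higher and 8 lower. Between cultures 12 were lower and 3 higher at 48 in Pax7 cells, and 17 lower and 1 higher in Tw2 cells, with the shares of all genes as given above. Ezh2, the main methyltransferase of dividing cells, was lower by -2.96 and -3.25, and its paralog Ezh1, the 1 gene of the list higher at 48 in Tw2 cells, was higher by 1.22 and 1.16. Of 20 retinoic acid pathway genes 3 could be fitted. The retinoid receptor Rxrg was lower in Tw2_GM by -0.92, but 0.12 without the GC and length trend. The corepressor Ncor1 was higher there by 1.23, not called with size factors (0.36), and Aldh1a2, which makes retinoic acid, was lower at 48 by -1.13 in Pax7 and -1.41 in Tw2 cells.

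**Figure D4:**
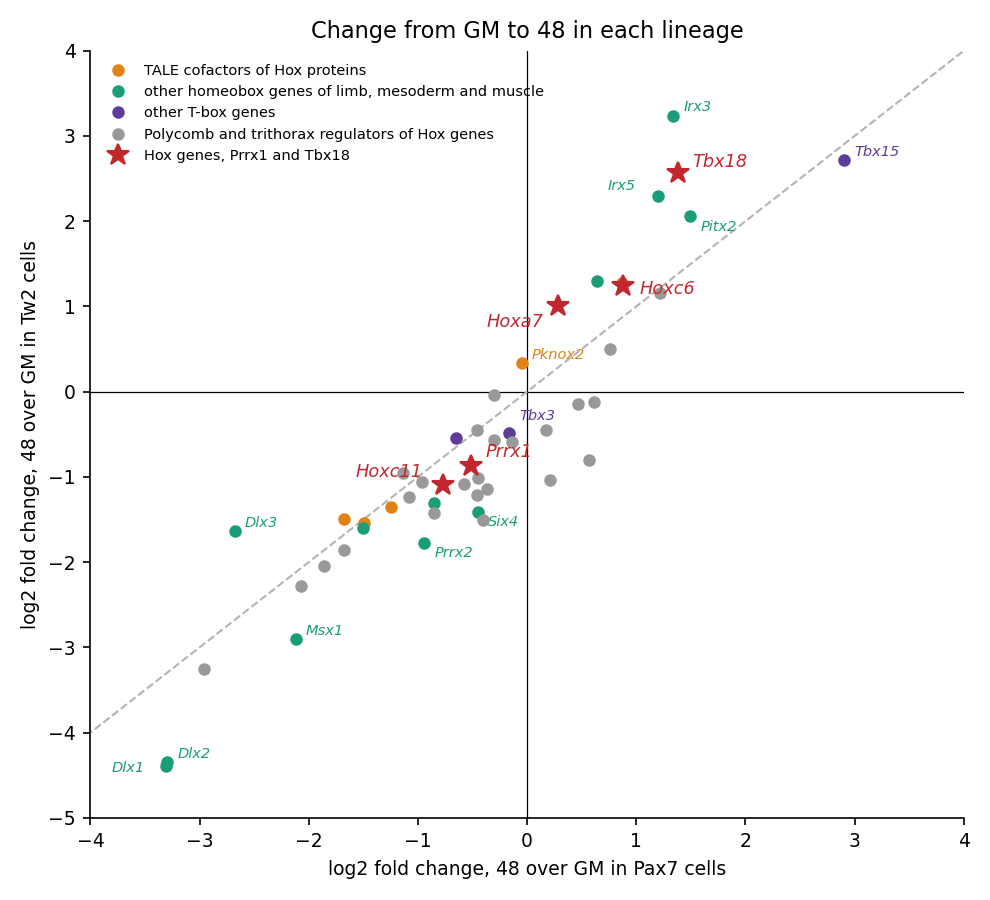
Log2 fold change from GM to 48 in Pax7 cells (horizontal axis) and in Tw2 cells (vertical axis) for the 5 genes (red stars) and the TALE, homeobox, T-box and Polycomb or trithorax genes fitted (points), with equal change as a dashed line. Tbx18 and Irx3 lie well above the line, and Hoxc6 and Hoxc11 lie on opposite sides of 0 on both axes.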

How the data were processed

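The values come from 1 table deposited by the authors. For each of its 5457 genes it holds the group means in CPM (reads scaled to library size), and log2 fold changes of the other 3 groups over Tw2_GM that the authors computed. TopHat2 2.0.0, DESeq2 1.6.3 and GRCm38 (mm10) are listed in the submitters' processing notes, while the counting tool and annotation are not given in the sources used here. The largest of a gene's 3 deposited fold changes was at least 1 in absolute log2 for every gene, and all fitted genes reached 10 CPM in 4 libraries or more.

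Each mean was taken apart into whole reads of its 2 libraries (called deeper and shallower, since the values carry no replicate numbers) from the size of 1 read in each, within 1.2 times the rounding error. A single solution was found for 5452 genes, and the other 5 were left out. Solver and fit were tested on simulated data. The sizes so found are not whole numbers, so a scaling by the authors may be part of them. Counting error alone allows 0.218 to 0.579 CPM where a library has 0 reads (3 reads).

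Group means of log2(CPM + 1) were fitted to the 8 libraries together with limma 3.58.1 in R 4.3.3, with eBayes (no trend, 4 residual and 4.02 prior degrees of freedom). P-values were adjusted by Benjamini-Hochberg over 5452 genes, "called" means an adjusted p below 0.05, and intervals are 95%. The 5 comparisons were the lineages in each culture, the cultures in each lineage and the difference of the latter. Alternatives were 2 other pseudocounts, a mean of at least 10 CPM, size factors, quantile normalization, removal of a GC and length trend (99.6% of genes had both values), eBayes with trend, voom, the 4 libraries compared alone, each library left out and, chosen after seeing the data, both Pax7_GM libraries left out. Every member is described. From each list up to 4 called genes of largest change per comparison may be named, and genes alike by the rule in the text. Some genes are named beyond this limit, among them Ezh1 and every homeobox gene called for the difference of changes. The members and lists were chosen with earlier results of these data known. Some named items are not reported here.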

Additional observations from a re-analysis of the deposited data

Results flagged for a closer look

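Tbx18 was picked out because its change from GM to 48 differed between the lineages by a test of that difference. The change was 1.38 in Pax7 cells and 2.56 in Tw2 cells on the log2(CPM + 1) scale, a difference of 1.19 ± 0.20 (limma interaction term, adjusted p = 0.00582 over 5452 genes). Both Tw2 libraries at 48 were above 120 CPM, and no other library was above 31 CPM. Of all genes 18.7% had such a difference called.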

How the results depend on the processing

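No paired analysis was possible because the group means carry no replicate numbers, so that libraries cannot be matched across groups. Of 25 results on single genes 12 kept direction and call under every alternative run, and of 430 values 390 did, 10 lost and 17 gained the call and 13 turned direction. Those that turned were Hoxc11 between lineages at 48 with quantile normalization (-0.33), size factors (-0.59) and voom (-0.02), with -0.09 to 0.09 when 1 library was left out, and in GM with quantile normalization (-0.11) and size factors (-0.49). Hoxc6 between lineages turned with size factors at 48 (-0.01) and in GM (-0.53), and with quantile normalization in GM (-0.01). Hoxa7 between lineages at 48 became 0.02 after removal of the GC and length trend. For Prrx1 the difference of changes became 0.05 with a pseudocount of 5 and ran from -0.73 to 0.01 with 1 library left out. The cause was not tested.

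Over all genes, those called for the difference of changes numbered 1021, 1775 after removal of the GC and length trend, and 449 to 3153 with 1 library left out, the last without the shallower Pax7_GM library. Of those called, 51.9% were higher, 74.6% with size factors and 34.5% without the GC and length trend. Genes called between lineages at 48 numbered 3568, and 2152 to 4218 with 1 library left out (2152 without the deeper Tw2_48 and 2261 without the shallower Pax7_48 library). The difference of changes could not be fitted on the 4 libraries compared alone. With 2 libraries a group, the standard error of a single difference was 0.14 to 0.25 for the 5 genes, and Prrx1 rests on 14 to 57 reads in the Tw2 libraries.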

Other observations

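Hoxa11os, an antisense transcript of the HoxA cluster that the selection by symbol leaves out, is given after its values were seen. It was at 28.5 and 21.2 CPM in Pax7_GM, 16.1 and 17.6 CPM in Tw2_GM, 5.73 and 5.37 CPM in Pax7_48 and 4.3 and 3.94 CPM in Tw2_48. Every GM library was above every library at 48, as for Hoxc11. Both genes reached 10 CPM in the GM libraries alone, so for both this order is not independent of the listing. It was lower at 48 by -1.97 ± 0.16 in Pax7 cells and -1.80 ± 0.16 in Tw2 cells (limma, adjusted p = 8.27e-06 and 1.07e-05). Without strand information its reads and those of sense transcripts cannot be told apart.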
